A study of Mus musculus with 2 samples.

Results

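The genes of the actin, myosin, tropomyosin, calponin and tubulin families were followed through the microarray comparison of hepatocytes from healthy and injured mouse livers. Members were chosen by name: actins (Actb, Acta, Actc and Actg genes), alpha-actinins (Actn), myosin light and heavy chains (Myl, Myh), tropomyosins (Tpm), transgelins (Tagln), calponins (Cnn) and alpha, beta and gamma tubulins (Tuba, Tubb, Tubg), each with the number that follows in its symbol. Of 30153 genes on the array, 63 met this rule, with 96 probes of 60 bases, and every probe of each gene was read. MHs (mature hepatocytes) came from the livers of healthy mice and were purified by Percoll gradient centrifugation after collagenase digestion. Sox9+EpCAM- hepatocytes came from DDC-injured livers of Sox9-EGFP mice, in which cells that express Sox9 carry a green fluorescent protein, and were sorted by FACS as GFP+EpCAM- cells. Feeding of DDC injures the bile ducts over weeks. The methods give Sox9-EGFP as the strain of both livers. The age of the mice and the number behind each RNA are not given in the sources used here. With Cy3 as the dye, every RNA went onto 1 array, so the 2 arrays differ in diet and in the way the cells were isolated, which cannot be told apart, and no value has a replicate error or a test.

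The labels were checked before the values were read. Both samples are labelled male, but Xist, the RNA that coats the inactive X of female cells, had an intensity of 1940 in MHs, as against 16.1, not well above background, in Sox9+EpCAM- hepatocytes. Ddx3y, Kdm5d, Eif2s3y and Uty of the Y chromosome were well above background with Sox9+EpCAM- RNA alone. The library labelled MH therefore goes against its sex label, and with 1 array per group no result can be given without it. The part of sex in the differences below was not tested. All 10 hepatocyte markers gave signals well above background on both arrays, 0 were at least 4-fold higher and 3 at least 4-fold lower in Sox9+EpCAM- hepatocytes (Cyp3a11, Cyp2e1 and Tat, from -8.58 to -2.46), and the log2 difference of Alb, the gene of albumin, was -0.87. Sox9 itself had an intensity of 8.52, not well above background, in MHs as against 60.2 in Sox9+EpCAM- hepatocytes. Its difference is therefore only known to be at least 0.53, a bound under 2-fold. Epcam had 139 and 2770 although the cells were sorted as EpCAM-, and Spp1, the gene of osteopontin, had 258 and 47000. Of 10 cholangiocyte markers, 3 were at least 4-fold higher and 0 lower, against 5.59% and 5.57% of all genes, the third being Muc1 with at least 2.84. Krt7 and Krt19 had -0.23 and 0.42, Cftr had 69.6 in MHs and 52.1 in Sox9+EpCAM- hepatocytes, Prom1 had a difference of -1.20, and the median of the list was 0.31. The summed intensity of 15 stellate cell and portal fibroblast markers was 15467 in MHs and 42953 in Sox9+EpCAM- hepatocytes, where sums of the latter are scaled to the 75th percentile of the MH array. That of 10 leukocyte markers was 14767 and 1948, with 5 at least 4-fold lower, from -5.54 for Laptm5 to -2.64 for Lyz2, the others being Cd74, C1qb and C1qc. That of 8 endothelial markers was 6365 and 1860, with 4 at least 4-fold lower, from -3.55 for Clec4g to -3.02 for Stab2, the others being Cdh5 and Tek. In such bulk RNA, fewer cells of a type and less RNA per cell cannot be told apart.

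Actin polymerises into filaments, and in a hepatocyte the cytoplasmic actins form the cortex beneath the membrane and the belt around the bile canaliculus, which non-muscle myosin contracts. A myosin molecule is built from heavy chains, which hold the motor, and light chains, which set its activity. Tropomyosins lie along the filament, while alpha-actinins, transgelins and calponins bind or bundle it. Alpha and beta tubulin pair to form microtubules, along which secretory vesicles travel, and gamma tubulin starts their growth. The smooth and striated muscle isoforms of these families are known from other cell types, and smooth muscle actin is the usual mark of activated stellate cells and myofibroblasts in injured liver.

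Signals well above background on both arrays were found for 48 of the 63 genes, while 9 had one with Sox9+EpCAM- RNA alone, 1 with MH RNA alone and 5 with neither. The difference below is the log2 intensity on the Sox9+EpCAM- array minus that on the MH array, each set relative to the 75th percentile of its array, and a gene with several probes is represented by its brightest. A probe not well above background on 1 array has only a bound there, and its difference is then given as at least or at most. Of the 58 genes well above background on at least 1 array, 8 (13.8%) were at least 4-fold higher in Sox9+EpCAM- hepatocytes, against 5.59% of all such genes, and 3 (5.17%) were at least 4-fold lower, against 5.57%. At 2-fold, 14 (24.1%) were higher, against 14.2% of all such genes, and 7 (12.1%) were lower, against 16.7%. When Gapdh was set equal on the arrays, 31.0% of the members were higher and 8.62% lower at 2-fold, against 18.7% and 12.3% of all genes. With Hprt set equal these shares were 24.1% and 13.8%, against 11.7% and 21.6%. With normexp correction, which raises low signals by an offset, they were 17.2% and 10.3%, against 8.91% and 13.5%. This correction also left 5 of the 8 members at least 4-fold higher, and the share of all genes at 4-fold under it is not given here. A further 32 genes, all measured on both arrays, lay within 2-fold, and Myl6b and Tuba3a had only lower bounds under 2-fold. Counted by probe, 13 of 85 (15.3%) were at least 4-fold higher, against 6.24% of all probes, and 4 (4.71%) were lower, against 5.74%. The median difference of the 48 genes was 0.31, and that of all genes measured on both arrays was -0.19. The share of higher genes among the members thus lay above that of the array and the share of lower genes at or below it, and no test of this is possible with 1 array per group. Scaling to Gapdh shifted the median of all genes by 0.27, scaling to Hprt by -0.20 and the deposited table by -0.18. Of the 48 genes, 7 changed sign under another scaling or background correction, namely Actn1, Myh7, Tpm2, Tpm3, Cnn3, Tagln and Tubb4b, so no direction is given for them. The error model of the scanner software puts the error of a difference at 0.20 to 0.32 on the log2 scale for the 69 probes measured on both arrays, which covers the spots and not the mice.

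**Figure D1:**
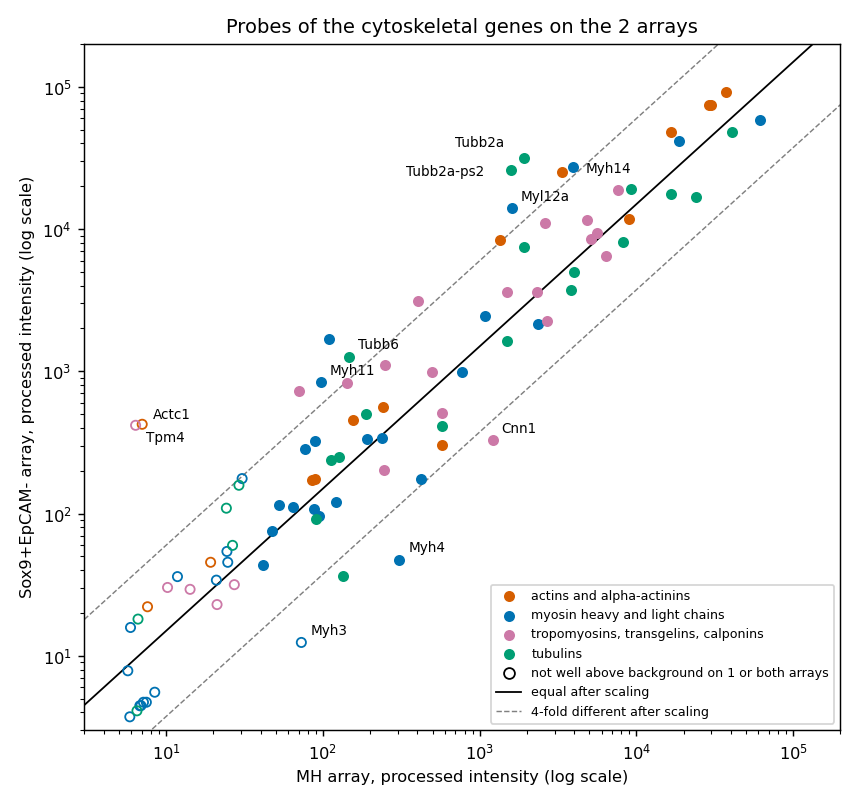
Processed intensity of each of the 96 probes with MH RNA (x axis) and with Sox9+EpCAM- RNA (y axis), both on a log scale, coloured by family; open circles were not well above background on at least 1 array. The solid line marks equal values after scaling and the dashed lines a 4-fold difference. Probes of Tubb2a, Myl12a, Myh14 and Tubb6, among others, lie above the upper dashed line, and probes of Myh4, Cnn1, Myh3 and Tubb2b below the lower one.

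The cytoplasmic actins, which every cell uses, were higher by less than 2-fold at their brightest probes, but by over 2-fold with quantile normalization. Actb, the gene of beta-actin, had 29700 in MHs and 74900 in Sox9+EpCAM- hepatocytes, a difference of 0.75 that was 1.26 with quantile normalization and 1.02 with Gapdh set equal. Actg1, the gene of gamma-actin, has 5 probes on chromosome 11 (mm9, minus strand), and these fell into 2 sets by position. The brightest had 37000 and 92200, a difference of 0.73, and the 2 probes within 48 bases of it had differences of 0.94 and 0.77. The 2 probes that lie 1412 and 1463 bases further downstream had 1340 and 8380, and 3360 and 25100. Their differences were 2.06 and 2.32, both past 4-fold. With quantile normalization the upstream probes had 1.25 to 1.37 and the downstream probes 2.30 and 2.66, so the downstream probes had the larger differences in both settings.

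The most downstream Actg1 probe shares a stretch with a probe that the array lists without a gene name, on chromosome 8 at 47316001 to 47316060 (mm9). It is shown because the values of both probes moved alike.
Actg1 and the unnamed chromosome 8 probe: atcgacacctgtaaatgtat
The unnamed probe had 916 in MHs and 8020 in Sox9+EpCAM- hepatocytes, a difference of 2.55. Whether both probes bind the same transcript was not tested.

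Among the muscle actins, 1 of 4 was at least 4-fold higher, against 5.59% of all genes. Actc1, the actin of heart muscle, had 7.03 in MHs, not well above background, and 424 in Sox9+EpCAM- hepatocytes. It was thus at least 10.2-fold higher, a difference of at least 3.35. With normexp correction the difference of Actc1 was 1.76, below 4-fold. Acta2, the smooth muscle alpha-actin, is printed in 10 spots and gave 85.4 and 171, a difference of 0.42. This difference was 0.08 with normexp correction and 0.22 with Hprt set equal. Before scaling, its spots ranged from 75.9 to 98.6 in MHs and from 156 to 185 in Sox9+EpCAM- hepatocytes. These spots repeat 1 probe on 1 array per group and give no spread between mice. Actg2, the smooth muscle gamma-actin, had 573 and 305, a difference of -1.49. Acta1 of skeletal muscle had 240 and 564, a difference of 0.65. The muscle actins therefore went in both directions, from -1.49 to at least 3.35.

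Of the stellate cell and portal fibroblast markers, 6 of 15 were at least 4-fold higher, against 5.59% of all genes, among them Col3a1 with a difference of 6.41, Col1a1 with 4.41, Col1a2 with 3.95 and Eln with at least 7.06. The others were Fbln2 with at least 4.31 and Lum with at least 2.77. Dcn, Thy1, Mfap4, Gli1 and Entpd2 lay within 2-fold, from -0.25 to 0.76. Lrat, of quiescent stellate cells, was lower, with at most -2.95, and Pdgfrb and Hand2 were well above background on neither array. Of the 12 smooth muscle and myofibroblast markers, Smtn, the gene of smoothelin, was higher, with 2.63, and Rgs5 of pericytes lower, with -2.25. Lmod1, Myocd, Pln, Kcnmb1 and Notch3 of this list were well above background on neither array, and its summed intensity, which Mcam dominates, was 142888 and 94723. The part of these cells in the values of the muscle actins was not tested.

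Several actin and myosin genes hold a CArG box, the site of serum response factor (SRF), in the promoter sequence of RefSeq (GRCm38.p6, from 250 bases before the start site). The members with the highest and the lowest difference among these genes are shown with 3 that lay within 2-fold. The box is in capitals, with 15 bases on each side in lower case.
Actc1, chr2:114052898-114052937, minus strand: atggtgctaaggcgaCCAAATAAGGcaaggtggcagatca
Acta1, chr8:123894824-123894863, minus strand: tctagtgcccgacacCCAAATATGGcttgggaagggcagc
Actg1, chr11:120348561-120348600, minus strand: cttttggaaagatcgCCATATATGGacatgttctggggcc
Myl9, chr2:156775288-156775327, plus strand: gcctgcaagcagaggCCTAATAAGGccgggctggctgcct
Myh4, chr11:67237693-67237732, plus strand: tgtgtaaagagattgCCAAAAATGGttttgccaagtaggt
A promoter was found for 54 of the 63 genes, 60 promoters in all, and 10 of them (16.7%) hold a CArG box, against 1.63% of 32851 mouse promoters of the same length. The box begins 47 bases before the start site in Actc1, 73 in Acta1, 90 in Actg1, 161 in Myl9 and 104 in Myh4. The other genes with a box are Cnn2, Myl3, Myl6, Myl7 and Myh13. In Myh13 the box begins 22 bases past the start site, and in the others before it. Differences of the 9 of these genes that have one ran from -3.28 for Myh4 to at least 3.35 for Actc1. Of the 9, 6 lay within 2-fold, as did 14640 of the 21877 genes of the array with a difference. The letters of the box differ between the genes shown, and genes with a box differed in both directions. GGAATG, the letters of TEAD sites, was found on either strand in 26.7% of the promoters of the members and in 14.7% of all. GGGCGG on either strand was in 48.3% and 35.7%, and TATAAA on the strand of the gene in 9 of the 60 promoters of members and in 2733 of the 32851 of all genes. No CArG box of a member overlapped TATAAA. A match to these letters is a description and does not show that a factor binds.

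The alpha-actinins crosslink actin filaments, and the 3 with a difference lay within 2-fold. Actn4, of non-muscle cells, had 156 and 456, a difference of 0.96. Actn1 had 9010 and 11700, a difference of -0.21 that was 0.06 with Gapdh set equal. Actn2 of striated muscle had 88.4 and 174, a difference of 0.39. Actn3 had 7.60, not well above background, and 22.1, with no fold.

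The non-muscle myosin heavy chains, the motors of the cell cortex, differed from probe to probe. Myh14, of the isoform IIC, had 3910 in MHs and 27200 in Sox9+EpCAM- hepatocytes at its brightest probe, a difference of 2.22. Its other probe, 32528 bases downstream on chromosome 7, had 1080 and 2430, a difference of 0.59, and the median of both was 1.40, below 4-fold. Myh9, of the isoform IIA, had 2350 and 2160 at its brightest probe, a difference of -0.70, while the median of both probes was 1.33. The other probe of Myh9, 47170 bases upstream on chromosome 15 (mm9, 77638189 to 77638248), had 110 and 1690, a difference of 3.36. In both genes the upstream probe was over 4-fold higher and the downstream probe was not. Myh10, of the isoform IIB, had 30.5 in MHs, not well above background, and 176 in Sox9+EpCAM- hepatocytes, at least 1.95, or 0.63 with normexp correction. Its other probe was well above background on neither array.

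Among the light chains, Myl12a was the one past 4-fold. Myl12a and Myl12b encode the regulatory light chains of non-muscle myosin. Myl12a had 1600 in MHs and 14000 in Sox9+EpCAM- hepatocytes, a difference of 2.55, while Myl12b had 18800 and 41500, a difference of 0.56. The probe of Myl12a lies on chromosome 17 at 71343750 to 71343809 (mm9) and shares a stretch with a probe on chromosome 5 at 67282266 to 67282325 that has no gene name. It is shown because this second probe gave a like difference.
Myl12a and the unnamed chromosome 5 probe: ttataatactggaaatgggac
The unnamed probe had 436 and 4530, a difference of 2.79. The essential light chain Myl6 had 61200 and 58400 at its brightest probe, a difference of -0.65, and 775 and 987 at the other, -0.23. The latter shares 28 bases with an unnamed probe of chromosome 14 that had -0.31. Myl9, a regulatory light chain of smooth muscle that non-muscle cells also use, had 190 and 333, a difference of 0.23. Myl7 of the heart atrium had 88.7 and 321, a difference of 1.27. The other light chains measured on both arrays, Myl1, Myl2, Myl3 and Myl4 of muscle, had differences between -0.58 and 0.55, Myl6b had at least 0.12, and Myl10 was well above background on neither array.

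Myh11, the heavy chain of smooth muscle myosin, had 97.2 in MHs and 837 in Sox9+EpCAM- hepatocytes, a difference of 2.52 that was 1.90 with normexp correction. Cnn1, the calponin of smooth muscle, went the other way, with 1210 and 329, a difference of -2.46. Tagln, another gene of smooth muscle, had 2310 and 3580, a difference of 0.05 that was -0.15 with Hprt set equal. The smooth muscle members Myh11, Cnn1, Tagln, Acta2, Actg2 and Myl9 therefore did not share a direction. The smooth muscle markers outside the families, given above, were likewise at least 4-fold higher in 1 case and lower in 1.

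Of the 10 striated muscle heavy chains, 7 were well above background on at least 1 array. Of these 7, 2 were at least 4-fold lower, against 5.57% of all genes, and none was found at least 4-fold higher, against 5.59%. Myh4, of fast skeletal muscle fibres, had 307 in MHs and 47.4 in Sox9+EpCAM- hepatocytes, a difference of -3.28 that was -2.30 with normexp correction. Myh3, the embryonic form, had 72.8 and 12.4, the latter not well above background, a difference of at most -2.57 that was -1.39 with normexp correction. Its probe shares 24 bases with that of Myh15, which was well above background on neither array. Myh7b had 425 and 174, a difference of -1.87. Myh8, the perinatal form, had 76.3 and 285 at its brightest probe, a difference of 1.32, and 64.7 and 111 at another, a difference of 0.20, and it was below 2-fold with the median of its probes, at 0.76, and with normexp correction, at 0.74. Myh6 of the heart had -0.30 at its brightest probe and at least 0.38 at the other, and Myh7 had -0.07, or 0.20 with Gapdh set equal. Myh13 was above background on the Sox9+EpCAM- array only, with no fold, and Myh1, Myh2 and Myh15 on neither. The summed intensity of 12 striated muscle markers was 744 in MHs and 1795 in Sox9+EpCAM- hepatocytes. Of these, Tnnt2 of heart muscle, at 1390 before scaling, was higher by at least 5.06 and Ckm, the creatine kinase of muscle, had 72.2 and 499, a difference of 2.21. Casq1 had 88.5 and 34.2, a difference of -1.95, Tnni3 had -0.68, and the median of the list was -0.34. Mb, Ttn and Nppa, which define striated muscle and heart, were well above background on neither array.

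Among the tropomyosins, Tpm4 was past 4-fold and Tpm1 was split by probe. Tpm4, of non-muscle cells, had 6.38 in MHs, not well above background, and 417 in Sox9+EpCAM- hepatocytes. This is a difference of at least 3.32, or 1.86 with normexp correction. Its probe shares 26 bases with a probe of an expressed sequence tag on chromosome 17, which had 72.7 and 366, a difference of 1.75. The 6 probes of Tpm1, a gene with many spliced forms, lie along 9108 bases of chromosome 9. From the most upstream, they had differences of 0.66, 2.38, 1.96, 2.78, -0.57 and 0.72. The last is the brightest, with 7570 and 18700. The 3 probes that lie 3619, 4478 and 4492 bases downstream of the first were dimmer, with 401 and 3130, 143 and 831, and 70.8 and 726. These inner probes had the largest differences in Tpm1, and the brightest probe came to 1.10 with quantile normalization. Tpm3 had 2700 and 2250 at its brightest probe, a difference of -0.85. Its other probes had -0.75 and, furthest downstream, 0.69, with intensities of 1500 and 3620. With normexp correction the latter probe stood for Tpm3 and gave 0.68. Tpm2 had 5580 and 9310, a difference of 0.16 that was -0.05 with Hprt set equal.

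**Figure D2:**
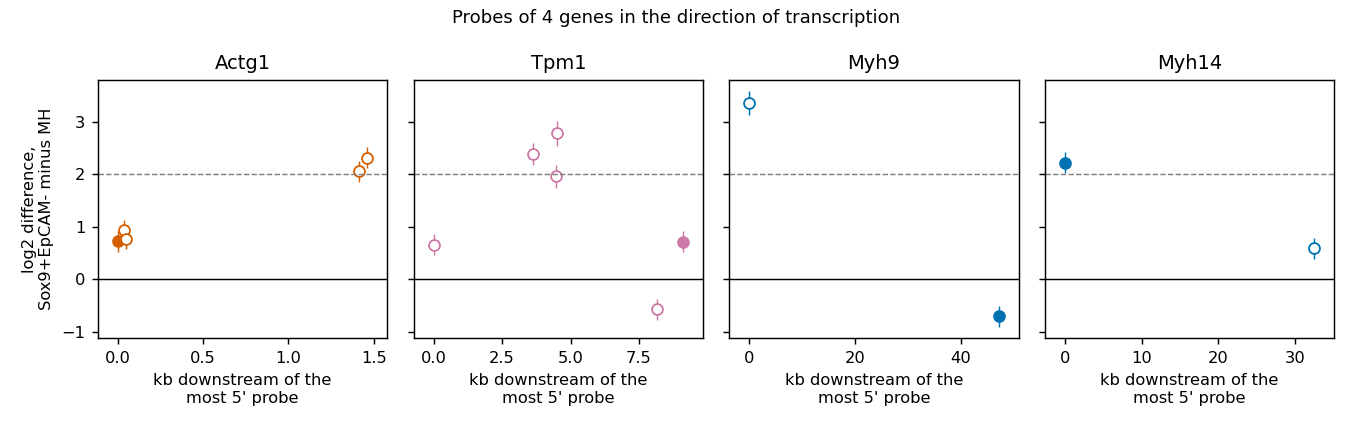
Log2 difference (Sox9+EpCAM- minus MH) of each probe of Actg1, Tpm1, Myh9 and Myh14 against its distance in kb from the most upstream probe of the gene, with bars for the error of the scanner's error model; filled circles are the brightest probe and the dashed line marks 4-fold. The downstream probes of Actg1, at 2.06 and 2.32, the inner probes of Tpm1, at 1.96 to 2.78, and the upstream probes of Myh9, at 3.36, and Myh14, at 2.22, stand above the other probes of their genes.

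Of the 22 members with several probes, 16 had differences from at least 2 of them. In 8 of these the probes lay over 1 apart on the log2 scale, and in 3 over 2 apart. The 3 were Myh9, Tpm1 and Tubb2b. Which exons or transcript forms the probes cover was not analysed here. How often the probes of other genes on the array lie this far apart was not analysed either.

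Tagln2, the transgelin of non-muscle cells, was higher at both of its probes. The brighter had 2600 and 11100, a difference of 1.51, and the other 247 and 1110, a difference of 1.58. Cnn2, a calponin of non-muscle cells, had 494 and 983, a difference of 0.41. Cnn3 had 5130 and 8470, a difference of 0.14 that was -0.06 with Hprt set equal, and 246 and 202 at a second probe, -0.87. Tagln3, of neurons, was above background on the Sox9+EpCAM- array only, with no fold.

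**Figure D3:**
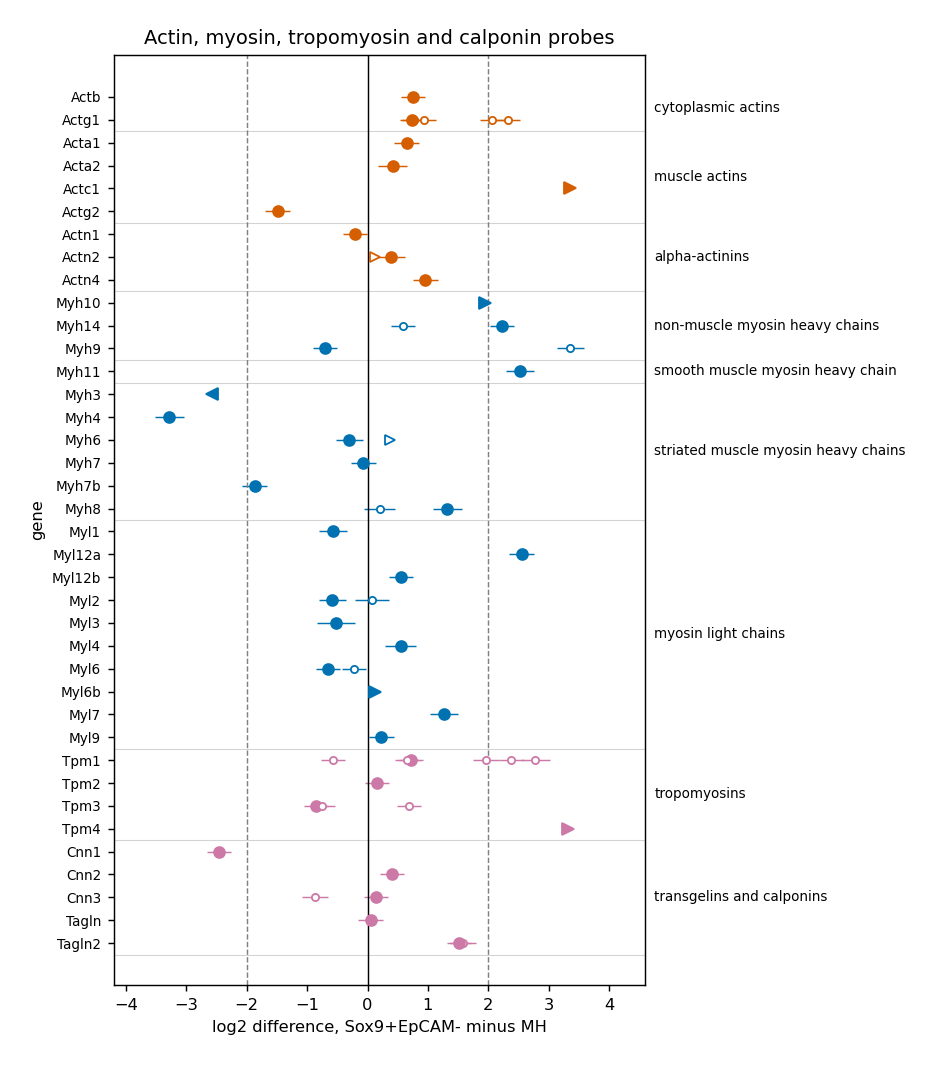
Log2 difference (Sox9+EpCAM- minus MH, x axis) of every probe of the actin, myosin, tropomyosin, transgelin and calponin genes (y axis, by family) that has one. Filled symbols are the brightest probe of a gene, open symbols its other probes, triangles bounds, bars the error of the scanner's error model, and dashed lines 4-fold. The brightest probes of Actc1, Myh14, Myh11, Myl12a and Tpm4 lie right of the upper line, from 2.22 to 3.35, and so do other probes of Myh9, at 3.36, Actg1, at 2.06 and 2.32, and Tpm1, at 2.38 and 2.78, while Myh3, Myh4 and Cnn1 lie left of the lower line, from -3.28 to -2.46.

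The beta and alpha tubulins overlapped but had different medians. Beta tubulins were at least 4-fold higher in 3 of 9 genes, against 5.59% of all genes, and at least 2-fold higher in 5 of 9, against 14.2%, with a median of 0.93 over the 8 measured on both arrays. Without Tubb2a-ps2, the near copy of Tubb2a, left out after its value was seen, 2 of 8 were at least 4-fold higher, 4 of 8 at least 2-fold higher, and the median was 0.48. Of the 6 alpha tubulins with a difference, 0 were found at least 2-fold higher and 1 at least 2-fold lower, against 14.2% and 16.7% of all genes. The median of the 5 measured on both arrays was -0.56. The 1 lower, Tuba4a, came to -0.67 with quantile normalization and -0.81 with Gapdh set equal, both within 2-fold. Over the scalings tried, the median of the beta tubulins ran from 0.73 to 1.25, or from 0.28 to 0.87 without Tubb2a-ps2, and that of the alpha tubulins from -0.76 to -0.29. No test of the difference between the classes is possible with these 2 arrays.

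Tubb2a had 1910 in MHs and 31500 in Sox9+EpCAM- hepatocytes, a difference of 3.46, which is the largest among the members measured on both arrays. Its probe lies on chromosome 13 at 34166116 to 34166145 (mm9). Tubb2a-ps2, which the array lists as a pseudogene of Tubb2a on chromosome 12, had 1580 and 25800, a difference of 3.45. The probes of the gene and the pseudogene share no stretch of 20 bases, but which transcript each binds is uncertain for such near copies. Tubb6 had 146 and 1270, a difference of 2.54. Tubb4a, known from neurons, had 1910 and 7450, a difference of 1.38. Tubb1, the tubulin of platelets and megakaryocytes, had 29.1 in MHs, not well above background, and 158 in Sox9+EpCAM- hepatocytes, at least 1.86, or 0.59, below 2-fold, with normexp correction. Of 9 platelet markers, 5 were measured on both arrays and lay within 4-fold, Pf4 had at least 1.28, and Ppbp, Gp9 and Gp5 were well above background on neither array. Their summed intensity was 3038 and 2369.

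Of the other beta tubulins, Tubb5 had 9190 and 19200, a difference of 0.48. Tubb4b had 40500 and 48200, a difference of -0.33 that was 0.13 with quantile normalization. Tubb3, known from neurons, had 572 and 415, a difference of -1.05. Tubb2b, the neighbour of Tubb2a on chromosome 13, had 127 and 251 at its brightest probe, a difference of 0.40. The other probe of Tubb2b lies 31 bases downstream and had 135 and 36.2, a difference of -2.48, so probes that overlap on the transcript went in opposite directions, and their median was -1.04. Of 8 markers of ciliated cells and neurons, Foxj1 was higher, with at least 2.59, and Syt1 lower, with -3.55, while Dnah5 and Nefl were well above background on neither array. Their summed intensity, which Snap25 dominates, was 75022 and 44208. The part of such cells in the values of the tubulins was not tested.

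Among the alpha tubulins, Tuba1b had 16500 and 17600 at its brightest probe and Tuba1c 3800 and 3720, differences of -0.49 and -0.61, and their second probes gave -0.28 and -0.46. Tuba1a, known from neurons and dividing cells, had 112 and 238, a difference of 0.50, and at least 1.39 at a second probe. Tuba4a had 23800 and 16900, a difference of -1.08, and Tuba8 had 90.2 and 91.8, a difference of -0.56. Tuba3a had at least 0.52, and Tuba3b, whose probe shares 28 bases with those of Tuba3a, was well above background on neither array. Of the gamma tubulins, Tubg1 had 8250 and 8130, a difference of -0.60, and Tubg2 had 189 and 502, a difference of 0.83.

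**Figure D4:**
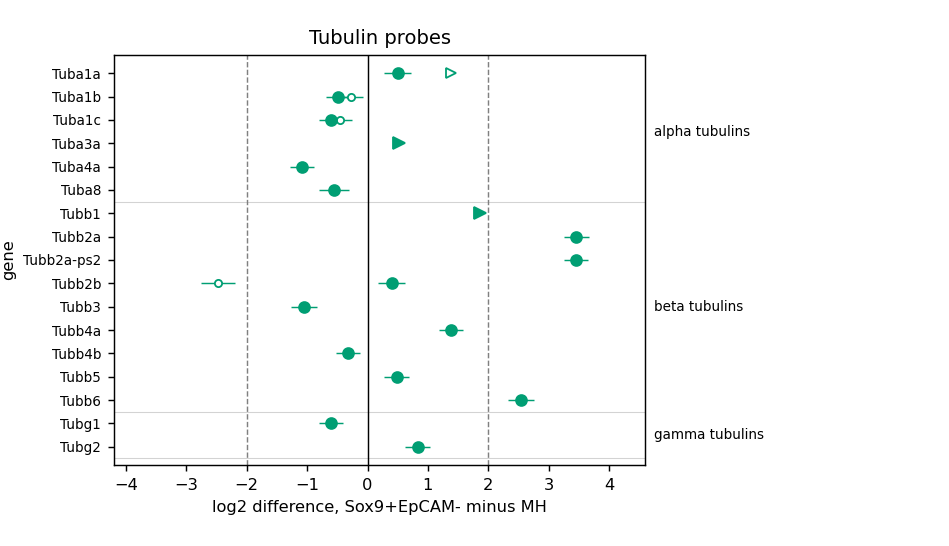
Log2 difference (Sox9+EpCAM- minus MH, x axis) of every tubulin probe that has one (y axis, genes by class), with symbols as in the plot of the actin and myosin probes. Tubb2a, Tubb2a-ps2 and Tubb6 lie right of the upper 4-fold line, at 3.46, 3.45 and 2.54, no alpha tubulin does, and the probes of Tubb2b lie at 0.40 and -2.48.

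The members of non-muscle cells were taken as Actb, Actg1, Actn1, Actn4, Myh9, Myh10, Myh14, Myl6, Myl9, Myl12a, Myl12b, Tpm1 to Tpm4, Tagln2, Cnn2, Cnn3, Tuba1a to Tuba1c, Tubb2a, Tubb2b, Tubb5, Tubb6 and Tubg1. Of these 26, 5 were at least 4-fold higher and 0 at least 4-fold lower, against 5.59% and 5.57% of all genes. The set was drawn up with earlier results known and is not complete, and it leaves out Tuba4a and Tubb4b, which had -1.08 and -0.33 and are also used outside muscle. Myl9 counts here and among the smooth muscle members. The median of the 24 measured on both arrays was 0.44 and ran from 0.24 to 0.71 over the scalings. The 5 were Myh14, Myl12a, Tpm4, Tubb2a and Tubb6. The members at least 4-fold lower, Myh4, Myh3 and Cnn1, all encode muscle isoforms, but so do Actc1 and Myh11, which were at least 4-fold higher.

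The genes that regulate these filaments were read in 3 lists. Of 14 genes of SRF, its coactivators and their known targets, 5 were at least 4-fold higher and 0 lower, against 5.59% and 5.57% of all genes, with a median of 0.85 that ran from 0.65 to 1.12 over the scalings. Srf itself had 1380 and 12400, a difference of 2.58. Its cofactor Mkl1 had 187 and 93.8, a difference of -1.58, and Myocd, the cofactor of smooth muscle, was above background on neither array. Of the targets, Ctgf had 47.3 and 10400, a 147-fold difference, and Cyr61 had 429 and 30800, a difference of 5.58. Zyx, a protein of focal adhesions, had a difference of 2.47, and Flna, which crosslinks actin, had at least 3.38. Vcl, the gene of vinculin, had 1.84 and Csrp1 at least 1.04. The other genes of the list with a difference, Tgfb1i1, Lima1, Fhl2 and the cofactor Mkl2, had -0.84, -0.54, -0.15 and -0.13. The list was drawn up with earlier results known, and the part of SRF in these values was not tested.

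Of 31 genes of actin binding and turnover, 1 was at least 4-fold higher, Arpc1b of the Arp2/3 complex with at least 2.73, and 0 lower, against 5.59% and 5.57% of all genes. Their median was 0.01, which ran from -0.19 to 0.28 over the scalings. Of 30 genes of microtubule assembly and tubulin folding, 3 were at least 4-fold higher and 3 lower, against the same shares of all genes, with a median of -0.03, from -0.23 to 0.23 over the scalings. The plus end proteins split: Mapre1 had 461 and 4030, a difference of 2.54, Mapre3 had 77.8 and 1160, a difference of 3.32, and Mapre2 had 1770 and 222, a difference of -3.58. The third gene higher was Map4, a microtubule stabiliser listed under an older name, with at least 3.78. The other genes lower were Map1b, with at most -2.15, and Ttl, the tubulin tyrosine ligase, 4.01-fold lower.

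**Figure D5:**
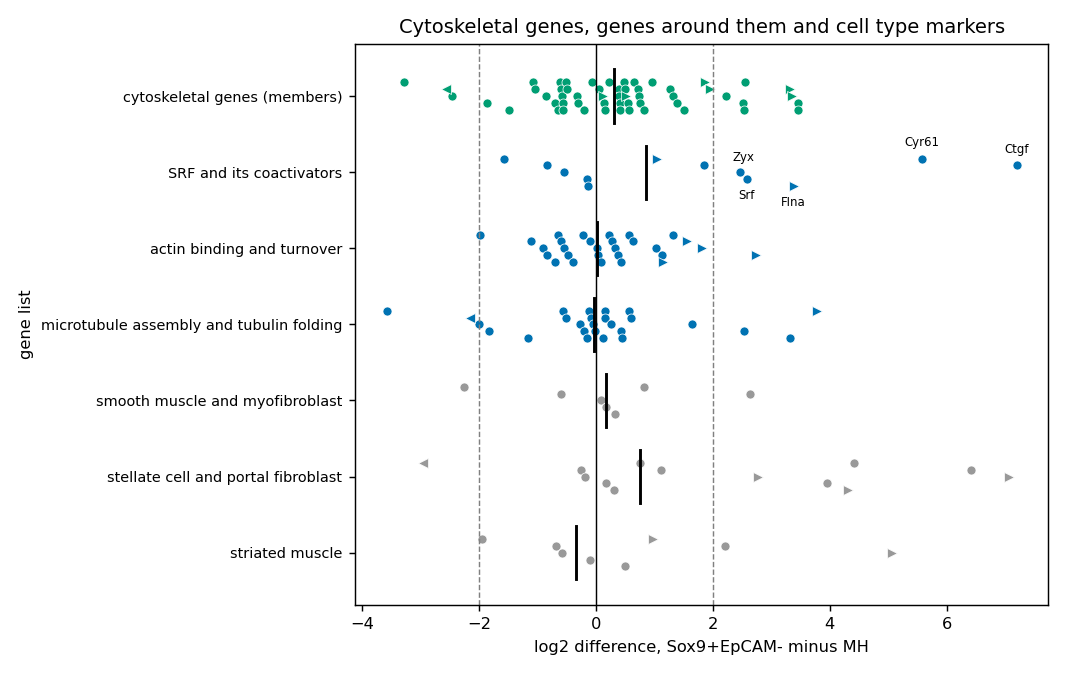
Log2 difference (Sox9+EpCAM- minus MH, x axis) of each gene of the cytoskeletal families, of 3 lists around them and of 3 lists of cell type markers (y axis); circles were measured on both arrays, triangles are bounds, black bars the median of the measured genes and dashed lines 4-fold. The median of the SRF list, 0.85, and of the members, 0.31, lie above 0 under each scaling, while those of the actin binding and microtubule lists, 0.01 and -0.03, change sign between scalings.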

How the data were processed

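RNA of 2 samples, 1 of MHs and 1 of Sox9+EpCAM- hepatocytes, was measured on 1-colour Agilent arrays. The authors deposited the processed spot intensity from Feature Extraction 10.7.3.1, background subtracted and not normalized between arrays, with mean and background intensities. They also deposited a table in which a comparison showed each signal to be that intensity divided by the array's median (SD of the log2 factor 0.0018). Spots flagged as outliers were left out, spots of a probe averaged, and intensities set to the 75th percentile of the array (741 for MH, 1110 for Sox9+EpCAM-) and taken to log2. Signals well above background came from 27523 (MH) and 32158 (Sox9+EpCAM-) of 43020 spots. Bounds used the probe's own signal or, if higher, the array's lowest well above background (27.8 and 18.4). With 1 array per group no test was made, and precision is limited by the number of arrays.

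The members and lists were chosen with earlier results of these data known. Full values go to members of non-muscle cells and to members with a probe at least 4-fold different or probes over 2 apart, and of the lists to genes at least 4-fold different. Vcl, the other genes within 4-fold of the SRF list, the markers within 4-fold and the members within 4-fold that belong to muscle, neurons or platelets were named after their values were seen. Of the list genes, 5 were found under older names through RefSeq synonyms. Probe coordinates are those of mm9 and promoters those of RefSeq, GRCm38.p6. Protein sequences were not analysed here, and 1 gene list is not reported here. Probes were compared for shared stretches of at least 20 bases, which 10 of 96 have. Python 3.11.15 (pandas 2.3.3, matplotlib 3.10.9, numpy 2.4.6) and limma 3.58.1 in R 4.3.3 (normexp, offset 50) were used, and the procedure was tested on simulated data. Alternatives were 6 scalings or background corrections, the median of all probes, outlier spots kept, no bound, genes above background on both arrays only, the probe with the largest difference and, added after seeing the data like the latter, the beta tubulins without Tubb2a-ps2.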

Additional observations from a re-analysis of the deposited data

How the results depend on the processing

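Normexp correction left 5 members at least 4-fold higher against 8, since Actc1, Tpm4 and Myh11 came to 1.76, 1.86 and 1.90, and moved 8 of 53 differences by more than 1.5-fold. The median of all probes moved 4 of 55, no bound 2 of 55 and the probe with the largest difference, chosen after seeing the data, 7 of 55, while the other alternatives moved 0. The latter gave 11 members at least 4-fold higher and 4 lower. No member at least 4-fold different changed sign under these alternatives. With the median of all probes the sign changed for Myh9, Tubb2b, Cnn3 and Myh6, to 1.33, -1.04, -0.36 and 0.04, and it changed for the same genes with the probe of the largest difference. The cause was not tested, except that normexp adds an offset, which compresses low signals. Signal over background limits the 10 members with bounds. A block for the slide and leaving replicates out could not be run. No paired analysis was possible because there is only 1 array per group.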
